A study of Mus musculus with 9 samples.

Results

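A panel of 36 glycolysis and hypoxia response genes was followed in mouse myeloid progenitors (MPs). Members were listed by gene symbol, with no threshold on a measured value, but with earlier results of these data known. It holds 2 glucose carriers, the enzymes from hexokinase to lactate dehydrogenase, 2 lactate carriers, the kinases that gate entry of pyruvate into mitochondria, the bifunctional enzymes that set fructose 2,6-bisphosphate, and the transcription factor Hif1a with its hydroxylases and targets. All 36 symbols were matched among the 37980 genes of the table, and 33 of them were among the 11953 genes with enough counts to be tested. The 3 left out were Aldoc, Eno2 and Ankrd37, which stayed at or below 1.85 normalised counts (CPM, per 1000000 of the library) in every sample.

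RNA-Seq was compared between 4 samples of NA MPs and 5 samples of WT MPs. NA stands for the NUP98-HOXA10hd fusion gene, a nucleoporin fused to a HOXA10 homeodomain, expressed from the Rosa26 locus in mice of the genotype NA LSL/+; Vav-Cre, where Vav-Cre switches the gene on in blood cells. Multipotent progenitors (MPPs) of NA or wild-type (WT) mice, all C57BL/6, were transplanted into irradiated adult C57BL/6 recipients, and 100000 Lin-c-kit+Sca1- cells per sample were sorted from their bone marrow. NA MPs were Tdtomato+ cells of NA MPP recipients, and WT MPs were CD45.2+ cells of WT MPP recipients. The labels put the sort at 3 months after transplantation and the methods of the study a month later. Elsewhere the study describes recipients as CD45.2+ and WT donors as CD45.1+, so donor, helper and recipient origin of the WT MPs cannot be told apart. Neither source says whether a sample came from a single mouse, and p-values measure only the spread between these samples, which may be technical. Set against counting error, chi-square per degree of freedom was 1.208 to 1.715 for pairs of WT MPs. For pairs of NA MPs it was 1.628 to 2.823. The coefficient of variation between samples beyond counting error was fitted at 3.49%. The p-values below rest on this small spread, and its source was not tested. In sorted bulk samples, fewer cells of a type and less RNA per cell cannot be told apart.

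Glycolysis splits glucose into pyruvate in the cytosol, and lactate dehydrogenase and the monocarboxylate carriers then pass the carbon on as lactate. Under low oxygen the HIF transcription factors escape prolyl hydroxylation by the EGLN enzymes, accumulate, and bind DNA at a short core, ACGTG or GCGTG, near many of these genes. Haematopoietic stem cells in the bone marrow are known for reliance on glycolysis, and mitochondrial respiration gains weight as progenitors mature.

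Totals after the authors' scaling was undone ran from 5557718 to 8106140 counts per sample, of which the panel took 0.916 to 0.981%. A level of 3 counts is 0.37 to 0.54 CPM at this depth, a limit set by counting error only. The sorted identity was checked first. Kit read 424 to 473 CPM in NA MPs and 448 to 466 CPM in WT MPs. Mpo, the granule enzyme of myeloid progenitors, read 15468 to 16907 CPM in NA MPs and 15209 to 15876 CPM in WT MPs. It rose by 0.06 on the log2 scale (edgeR adjusted p = 0.035). Ly6a, which encodes Sca1, stayed at or below 3.49 CPM. The 11 myeloid progenitor markers summed to 25406 to 27791 CPM in NA MPs and 24835 to 25805 CPM in WT MPs. All 11 were tested, and 5 were higher and 2 lower. Nup98, a partner in the fusion, rose by 0.68 on the log2 scale and Hoxa10 by 3.96. Other marker lists moved with the groups, where 17.9% of all tested genes were higher and 16.3% lower. The summed level of 18 erythroid markers was 854 to 1096 CPM in NA MPs and 1584 to 1769 CPM in WT MPs, with 13 of the 15 tested lower, and 14 B lymphoid markers summed to 231 to 410 CPM against 58.9 to 64.3 CPM, with all 13 tested higher. The 20 immediate early genes summed to 2102 to 4608 CPM against 468 to 976 CPM, with 15 of the 16 tested higher. Of 18 proliferation genes 9 were lower, at 5267 to 5631 CPM against 5848 to 6023 CPM. Myeloid subsets shifted as well, with 10 mast cell and basophil markers at 786 to 909 CPM against 606 to 641 CPM (6 of 9 tested higher, 2 lower), 14 neutrophil markers at 699 to 1042 CPM against 618 to 688 CPM (5 of 11 higher, 2 lower) and 8 eosinophil markers at 77.7 to 171 CPM against 192 to 244 CPM (1 of 7 higher, 4 lower). The summed megakaryocyte and monocyte markers overlapped between the groups, though single genes moved. Of 9 tested monocyte and macrophage markers 5 were higher and 2 lower, and of 8 tested megakaryocyte markers 1 was higher and 3 lower. The 11 T and NK markers summed to 297 to 317 CPM against 252 to 274 CPM, with both tested genes, Lck and Nkg7, higher, while 7 of the 11 stayed under 1 CPM and Cd3e and Cd3g were at 0 in every sample. The part of these shifts in the values below was not tested.

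The core letters of HIF binding were found in more promoters of the panel than of other genes. The panel was listed partly as targets of HIF, so this comparison is a description and not a test. In RefSeq promoter windows on GRCm38.p6, which run from 250 bases before to 50 bases after a listed start, 33 of the 36 genes had an entry. ACGTG on either strand occurred in 24 of these 33, a share of 72.7% when any listed start of a gene counts, against 29.8% of the 9034 tested genes with an entry and 21.8% of all 27025 genes with one. With GCGTG counted as well, the shares were 90.9%, 68.3% and 46.7%. Genes with several listed starts have more chances of a match. Counted by window, ACGTG occurred in 27 of 48 windows of the panel, 56.25%, against 19.6% of all 32851 windows. The median number of CpG dinucleotides was 21 both in the panel and among tested genes, but 7 over all 27025 genes with an entry. Both cores hold a CpG, so the comparisons with all genes and all windows are not matched for it. By direction of change, ACGTG was found in 7 of 9 members that rose, 5 of 5 that fell and 10 of 16 that did not pass the test. The 250 bases before the start are printed for the single-start members with the largest changes, and for the first of the 2 starts of Ldha, whose window held the most matches. Capitals mark ACGTG or GCGTG read on either strand, and the palindrome CACGTG holds an overlapping match on each strand. The stretch of Ddit4 lies at chr10:59951771-59952020, minus strand, Ldhb at chr6:142507958-142508207, minus strand, Egln3 at chr12:54203875-54204124, minus strand, Hif1a at chr12:73907617-73907866, plus strand, Slc16a1 at chr3:104638414-104638663, plus strand, and Ldha at chr7:46845554-46845803, plus strand.
Ddit4: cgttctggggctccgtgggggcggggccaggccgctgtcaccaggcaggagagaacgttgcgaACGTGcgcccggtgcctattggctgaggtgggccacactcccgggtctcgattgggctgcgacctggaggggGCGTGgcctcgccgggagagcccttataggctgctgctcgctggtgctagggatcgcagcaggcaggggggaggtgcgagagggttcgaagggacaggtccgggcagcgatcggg
Ldhb: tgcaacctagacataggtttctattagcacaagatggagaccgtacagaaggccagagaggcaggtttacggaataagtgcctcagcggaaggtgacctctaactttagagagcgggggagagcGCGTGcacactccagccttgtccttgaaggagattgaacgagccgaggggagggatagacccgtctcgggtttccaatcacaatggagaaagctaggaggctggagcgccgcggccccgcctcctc
Egln3: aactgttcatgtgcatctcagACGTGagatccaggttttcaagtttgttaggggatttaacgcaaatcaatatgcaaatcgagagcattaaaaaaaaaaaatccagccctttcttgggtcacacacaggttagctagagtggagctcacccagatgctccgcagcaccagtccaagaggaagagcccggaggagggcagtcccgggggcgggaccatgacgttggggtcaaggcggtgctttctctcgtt
Hif1a: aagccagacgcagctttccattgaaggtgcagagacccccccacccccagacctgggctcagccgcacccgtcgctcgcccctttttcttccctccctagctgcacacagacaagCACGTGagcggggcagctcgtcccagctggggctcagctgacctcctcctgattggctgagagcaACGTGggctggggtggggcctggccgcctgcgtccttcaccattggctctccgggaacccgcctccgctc
Slc16a1: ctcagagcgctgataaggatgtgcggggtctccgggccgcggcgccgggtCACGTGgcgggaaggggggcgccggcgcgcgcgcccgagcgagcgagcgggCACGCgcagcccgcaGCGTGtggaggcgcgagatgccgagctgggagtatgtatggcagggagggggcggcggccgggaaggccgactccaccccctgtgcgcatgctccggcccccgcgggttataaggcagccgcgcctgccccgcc
Ldha: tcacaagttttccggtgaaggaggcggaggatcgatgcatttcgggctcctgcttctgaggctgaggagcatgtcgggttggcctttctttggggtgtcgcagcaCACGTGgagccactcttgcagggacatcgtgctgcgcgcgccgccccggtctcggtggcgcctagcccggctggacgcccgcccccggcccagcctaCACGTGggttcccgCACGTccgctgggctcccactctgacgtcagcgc

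The window of Ldhb held a single GCGTG and no ACGTG, while that of Ldha held 5 matches of ACGTG. A match is a description of letters and does not show binding.

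As a whole, the panel moved little, as did most tested genes. Tested with edgeR (quasi-likelihood F-test, Benjamini-Hochberg over all tested genes), 16 of the 33 tested members differed between NA MPs and WT MPs, 10 higher and 6 lower. Over all tested genes 34.1% were called, 17.9% higher and 16.3% lower. The panel's share was 48.5%. Among the 2339 genes at or above the median level of the tested members 48.3% were called. That set leaves out the levels below the median, where other members lie, so it is not matched to the panel. The part of level in the panel's share was not tested. Scaling by library size alone, without TMM factors, gave 8 members higher and 8 lower. Changes were small. The median log2 fold change was 0.01 for the members and -0.001 over all genes, and the median absolute change was 0.09 against 0.12. The median level was 6.69 log2 CPM for the members and 5.17 over all genes, and sizes of change were not compared at matched level. For 29 of 33 members the log2 fold change lay within 0.3 of 0, as for 80.8% of all tested genes. Only Ddit4 and Ldhb passed the threshold with a change above 1.5-fold, which 7.76% of all tested genes did, and only Ddit4 passed 2-fold, which 4.14% did. The 2 groups did not overlap for 11 members, 7 higher and 4 lower, where 26.4% of all tested genes did not overlap, 14.2% higher and 12.2% lower. Such separation fixes an exact two-sided permutation p at 0.0159, the smallest that 4 samples against 5 allow, so that p adds nothing to the count. The calls held in all 20 other settings tried for 11 members, Hk3, Pfkm, Aldoa, Pkm, Ldhb, Slc16a1, Pdk3, Egln3, Hif1a, Ndrg1 and Ddit4.

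**Figure D1:**
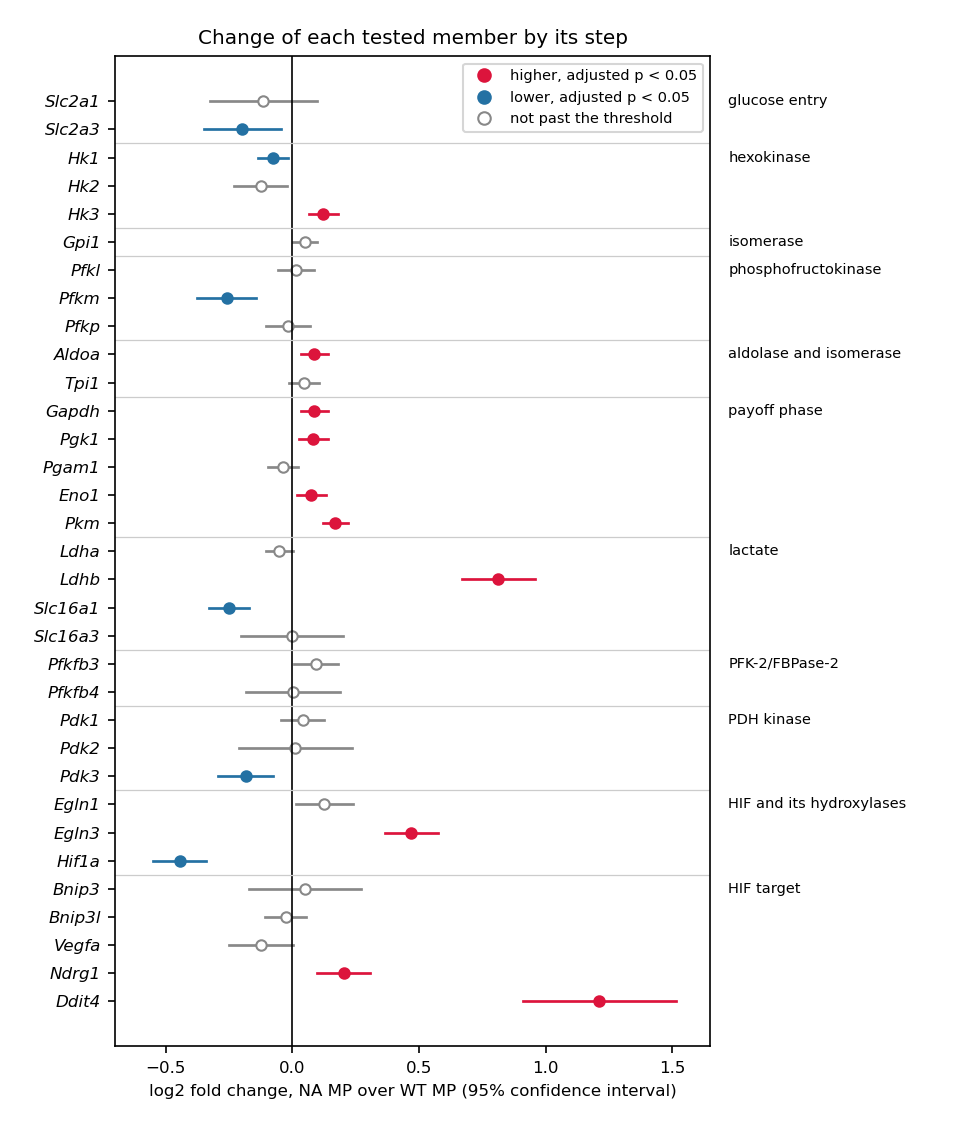
Log2 fold change of NA MPs over WT MPs for the 33 tested members, grouped by step, with points for the edgeR estimate and lines for its 95% confidence interval. Filled red and blue points passed an adjusted p of 0.05, higher or lower. Of 33 estimates 29 lie within 0.3 of 0, as do 80.8% of all tested genes. Ddit4 at 1.21 and Ldhb at 0.81 lie farthest to the right and Hif1a at -0.45 farthest to the left.

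Neither glucose carrier rose. Slc2a1, the basal carrier GLUT1, read 12.3, 13.4, 14.8 and 14.0 CPM in NA MPs and 15.1, 13.6, 14.2, 17.7 and 13.6 CPM in WT MPs. The groups overlapped, and the log2 fold change was -0.12 ± 0.10 (SE, edgeR adjusted p = 0.43), with a 95% confidence interval from -20.3% to 6.80%. Slc2a3, the high-affinity carrier GLUT3, read 32.8, 26.5, 33.6 and 32.8 CPM against 41.7, 35.5, 35.8, 31.4 and 36.3 CPM. It fell by 0.20 ± 0.08 on the log2 scale (edgeR adjusted p = 0.036), although NA MP 2 lay apart from the other 3 and WT MP 4 lay below 3 of the NA MPs. This call was lost in DESeq2 (adjusted p = 0.10) and held in 4 of 9 fits that left out 1 sample.

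Hexokinases, which trap glucose as glucose 6-phosphate, moved in different directions. Hk3, the isozyme typical of myeloid cells, read 584, 637, 623 and 602 CPM in NA MPs and 583, 554, 563, 552 and 559 CPM in WT MPs. The groups did not overlap, though NA MP 1 and WT MP 1 nearly met, and Hk3 rose by 8.85% (log2 0.12 ± 0.03, edgeR adjusted p = 0.00039). Hk1 read 394, 370, 371 and 366 CPM against 402, 396, 401, 397 and 382 CPM. It fell by 0.08 ± 0.03 on the log2 scale (edgeR adjusted p = 0.037), a call that DESeq2 did not make (adjusted p = 0.057) and that held in 2 of 9 fits without 1 sample. Hk2, the isozyme most associated with HIF1 and growth signals, read 72.5, 84.7, 78.7 and 77.8 CPM against 94.7, 86.5, 85.4, 86.4 and 76.3 CPM. Its log2 fold change was -0.13 ± 0.05 and missed the threshold (edgeR adjusted p = 0.054), which it passed in 6 of 11 other settings, among them RLE (adjusted p = 0.050), library size alone (adjusted p = 0.022) and limma (adjusted p = 0.041), and in 2 of 9 fits without 1 sample. Scaled by transcript length, Hk3 made up 65.1 ± 1.24% (SD, n = 4) of the summed hexokinase level in NA MPs, against 61.8 ± 0.59% (SD, n = 5) for WT MPs, with no overlap between samples.

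Phosphofructokinase commits sugar to glycolysis. Pfkl, the liver-type subunit, which held 49.3% of the summed level per kilobase in NA MPs and 47.0% in WT MPs, read 151, 155, 158 and 152 CPM in NA MPs and 151, 154, 154, 151 and 153 CPM in WT MPs. The groups overlapped, and the 95% confidence interval ran from -3.86% to 6.15% (edgeR adjusted p = 0.79). Pfkm, the muscle-type subunit, read 51.8, 46.0, 45.7 and 49.0 CPM against 63.7, 56.7, 54.3, 57.0 and 56.9 CPM. Every NA MP lay below every WT MP, and Pfkm fell by 16.5% (log2 -0.26 ± 0.06, edgeR adjusted p = 0.0003). Exons of Pfkm share 18 bases with Senp1 on the opposite strand, and whether counting used strand is not given in the sources used here. They also share 341 bases with Gm26513 on the same strand, a gene with no entry among the counts. Pfkp, the platelet-type subunit, was at 107 ± 5.89 CPM (SD, n = 4) and 109 ± 5.02 CPM (SD, n = 5), with an edgeR adjusted p of 0.80, and shares 748 exon bases with the opposite-strand gene Pitrm1. Pfkfb3 and Pfkfb4, whose products make and remove the activator fructose 2,6-bisphosphate, did not pass the test either (edgeR adjusted p = 0.099 and 0.99).

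From aldolase to pyruvate kinase, 5 enzymes of the pathway rose by between 5.29 and 12.4%, while Tpi1 and Pgam1 did not pass and Aldoc and Eno2 were not tested. Over all tested genes 17.9% were higher, and 24.0% among those at or above the panel's median level. Of the 5, only Aldoa and Pkm kept their calls in every setting tried. Pkm, pyruvate kinase, read 1408, 1513, 1477 and 1439 CPM in NA MPs and 1308, 1275, 1287, 1339 and 1284 CPM in WT MPs. All NA MPs were higher, and Pkm rose by 12.4% (log2 0.17 ± 0.02, edgeR adjusted p = 1.7e-07). The table gives 1 value per gene, so the M1 and M2 forms of Pkm were not separated. Exons of Pkm share 767 bases with the same-strand gene Gm49759, which has no entry among the counts. Aldoa, aldolase A, read 614, 628, 621 and 600 CPM against 576, 586, 584, 583 and 572 CPM. It rose by 6.14% without overlap (log2 0.09 ± 0.03, edgeR adjusted p = 0.0078).

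The other 3 rises were smaller relative to their error. Pgk1, phosphoglycerate kinase, an X-linked gene, read 392, 405, 408 and 394 CPM in NA MPs and 387, 379, 376, 381 and 366 CPM in WT MPs, with no overlap and an edgeR adjusted p of 0.022. Gapdh, which makes the NADH of glycolysis, read 1322, 1442, 1435 and 1340 CPM against 1356, 1297, 1296, 1331 and 1242 CPM, and WT MP 1 lay above 2 of the NA MPs. It rose by 6.18% (log2 0.09 ± 0.03, edgeR adjusted p = 0.011). Eno1, enolase, read 549, 602, 593 and 571 CPM against 556, 559, 547, 557 and 530 CPM and overlapped through NA MP 1 (log2 0.07 ± 0.03, edgeR adjusted p = 0.035). With 1 sample left out, Pgk1 and Gapdh each passed in 6 of 9 fits and Eno1 in 5 of 9. Under library size alone Pgk1 (adjusted p = 0.091) and Eno1 (adjusted p = 0.13) were lost, and DESeq2 did not call Eno1 (adjusted p = 0.073). Among the other genes, 75 hold a stretch with at least 90% identity to Gapdh over 200 bases, and their summed counts came to 2.65 to 4.03% of the Gapdh counts, with Peli2 the most counted. Exons of Gapdh share 68 bases with the opposite-strand gene Iffo1, which rose from 55.5 to 88.2 CPM on average.

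Gpi1, Tpi1 and Pgam1, which interconvert sugar phosphates and phosphoglycerates, did not pass the test (edgeR adjusted p = 0.11, 0.25 and 0.34). Their 95% confidence intervals lay between -6.50% and 7.62% of the WT MP level. Summed over the 18 enzymes from hexokinase to lactate dehydrogenase, the level was 8415 to 8906 CPM in NA MPs and 8105 to 8436 CPM in WT MPs, and the groups overlapped by 1 sample on each side.

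Lactate metabolism held the largest change among the enzymes of the panel. Ldhb, the lactate dehydrogenase subunit typical of heart that favours conversion of lactate to pyruvate, read 37.5, 43.9, 39.5 and 39.4 CPM in NA MPs and 23.5, 24.3, 23.9, 20.9 and 21.6 CPM in WT MPs. The lowest NA MP stood well above the highest WT MP, and Ldhb rose 1.76-fold (log2 0.81 ± 0.07, edgeR adjusted p = 1.2e-13). Ldha, the subunit that favours lactate formation, read 648, 653, 658 and 642 CPM against 701, 690, 664, 657 and 660 CPM. The groups touched only where NA MP 3 passed WT MP 4, and the log2 fold change was -0.05 ± 0.03 (edgeR adjusted p = 0.12). Ldha remained the main subunit. Per kilobase of transcript, Ldhb made up 7.90 ± 0.47% (SD, n = 4) of the summed lactate dehydrogenase level in NA MPs, against 4.50 ± 0.22% (SD, n = 5) for WT MPs, with no overlap.

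Slc16a1, the monocarboxylate carrier MCT1, read 124, 125, 133 and 137 CPM in NA MPs and 150, 161, 156, 147 and 159 CPM in WT MPs. Every NA MP was lower, and Slc16a1 fell by 15.9% (log2 -0.25 ± 0.04, edgeR adjusted p = 1.0e-06). Slc16a3, the export carrier MCT4 and a HIF target, was at 14.4 ± 0.71 CPM (SD, n = 4) and 14.4 ± 1.01 CPM (SD, n = 5). The 95% confidence interval of its change ran from -13.2% to 14.9%. Per kilobase, Slc16a1 held 89.8% and 91.3% of the summed level of the pair in NA MPs and WT MPs. The related carrier Slc16a7 and the carrier partners Bsg and Emb were tested, and none passed by edgeR (adjusted p = 0.97, 0.64 and 0.092), with 1 of the 3, Emb, at an unadjusted p under 0.05. DESeq2 and limma also called 0 of the 3.

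**Figure D2:**
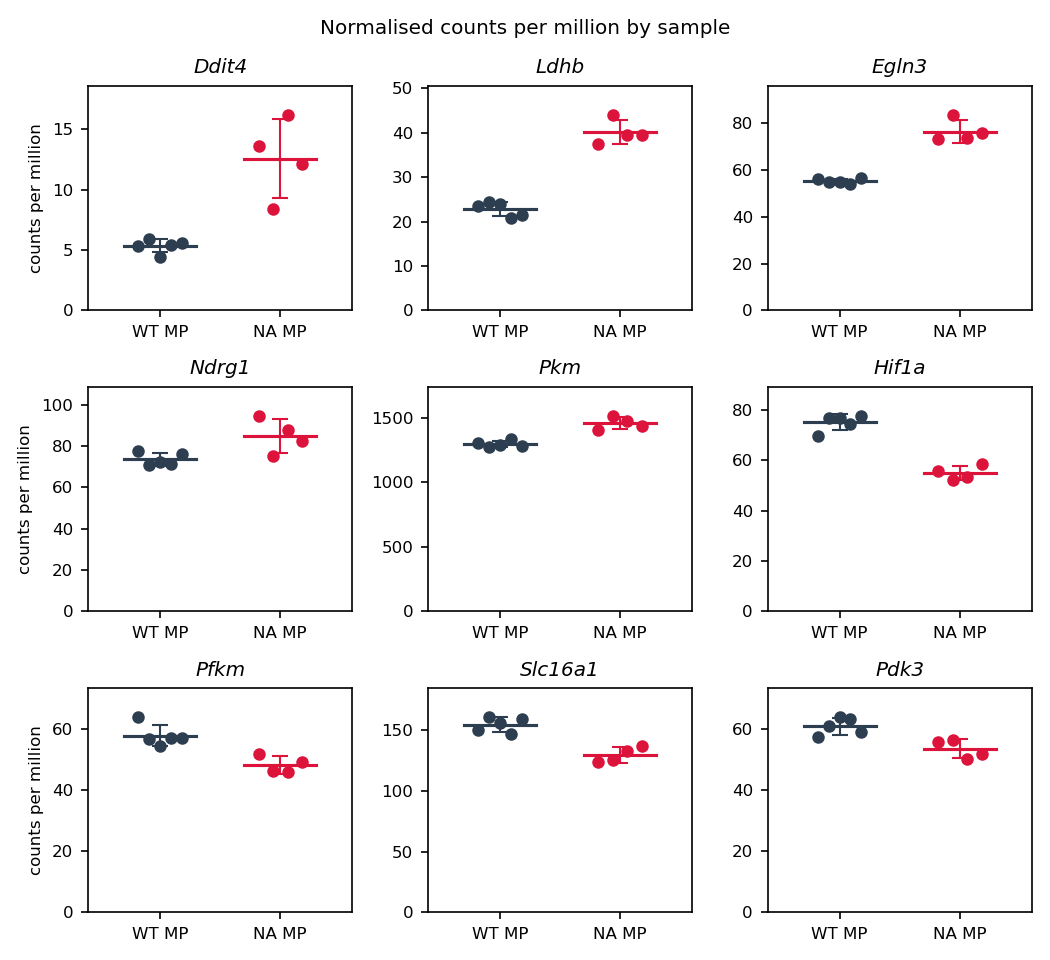
Normalised CPM of 9 members in each WT MP and NA MP sample, on axes that start at 0, with a horizontal line at the group mean and bars of 1 SD. Groups do not overlap in any panel except Ndrg1, where NA MP 2 at 75.0 CPM lies below the highest WT MP, and the 4 NA MP values of Ddit4, 8.38 to 16.1 CPM, spread more than the WT MP values.

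The PDH kinases phosphorylate pyruvate dehydrogenase and so hold pyruvate back from the mitochondria. Pdk3 read 56.0, 56.6, 50.4 and 51.9 CPM in NA MPs and 57.4, 61.0, 64.0, 63.4 and 59.1 CPM in WT MPs. The groups did not overlap, and Pdk3 fell by 12.1% (log2 -0.19 ± 0.05, edgeR adjusted p = 0.0063). Pdk1, the kinase best known as a HIF1 target, read 111, 101, 105 and 103 CPM against 98.2, 104, 102, 105 and 101 CPM. The groups overlapped although NA MP 1 was highest, and Pdk1 did not pass the test (log2 0.04 ± 0.04, edgeR adjusted p = 0.49), and neither did Pdk2, at 14.0 ± 2.39 CPM (SD, n = 4) and 13.6 ± 1.41 CPM (SD, n = 5). Pdk1 nevertheless held a larger share of the 3 kinases per kilobase, 39.1 ± 1.19% (SD, n = 4) against 36.0 ± 0.54% (SD, n = 5), without overlap.

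**Figure D3:**
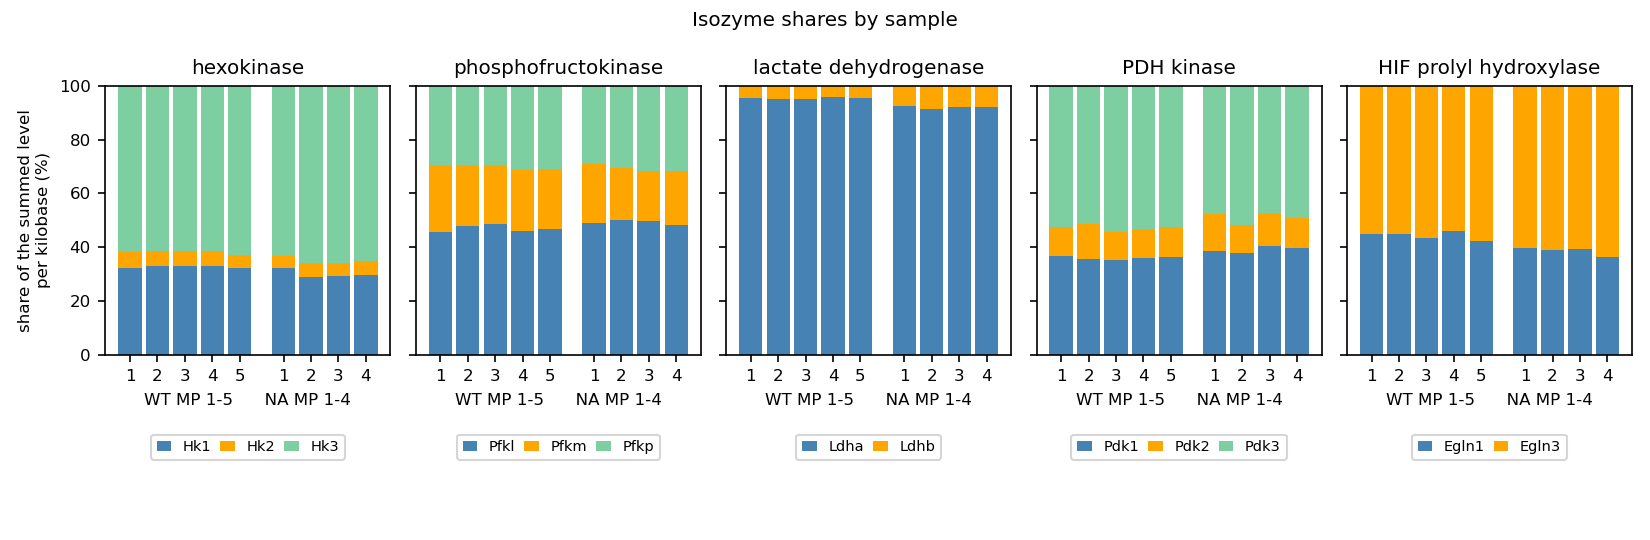
Stacked bars give the percent of the summed level per kilobase of transcript that each isozyme held in every sample, for 5 families, with WT MPs on the left and NA MPs on the right. The shares of Hk3, Ldhb, Pdk1 and Egln3 were higher and that of Pfkm lower in all NA MPs than in all WT MPs, with Ldhb at 7.45 to 8.56% against 4.23 to 4.76%.

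Isozyme shares were computed for 11 families as a description, with no test. In 5 of them a share did not overlap between the groups. In the other 6 it did, with Slc2a3 at 65.4% and 66.6% of the glucose carriers, Bnip3l at 81.9% and 82.7% of its pair, Pfkfb3 at 79.8% and 78.6%, and Aldoa and Eno1 above 99.8% in every sample.

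Hif1a and its hydroxylase Egln3 changed in opposite directions. Hif1a, the oxygen-regulated subunit of HIF1, whose protein is controlled mainly by degradation, read 56.0, 52.4, 53.3 and 58.6 CPM in NA MPs and 69.9, 76.7, 77.0, 74.5 and 77.6 CPM in WT MPs. All NA MPs were lower, and the Hif1a transcript fell by 26.6% (log2 -0.45 ± 0.05, edgeR adjusted p = 5.9e-10). The opposite-strand gene Gm15283 shares 330 exon bases with Hif1a and stayed under 1 CPM. The same-strand gene Gm49321 shares 148 and has no entry among the counts. Egln3, the prolyl hydroxylase PHD3 and itself a HIF target, read 73.0, 83.2, 73.5 and 75.5 CPM against 56.1, 54.6, 54.9, 53.9 and 56.3 CPM. It rose by 38.5% without overlap (log2 0.47 ± 0.05, edgeR adjusted p = 8.4e-11). Egln1, the main hydroxylase PHD2, was at 64.9 ± 5.64 CPM (SD, n = 4) and 59.4 ± 2.89 CPM (SD, n = 5) and did not pass the test (log2 0.13 ± 0.06, edgeR adjusted p = 0.077). Egln3 accounted for 61.4 ± 1.45% (SD, n = 4) of the pair per kilobase in NA MPs, against 55.7 ± 1.46% (SD, n = 5) for WT MPs.

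Among the stress and hypoxia targets, Ddit4 and Ndrg1 rose. Ddit4, which encodes REDD1, an inhibitor of the growth kinase complex mTORC1 induced by hypoxia, glucocorticoids and DNA damage, read 13.6, 8.38, 16.1 and 12.1 CPM in NA MPs and 5.35, 5.91, 4.44, 5.41 and 5.60 CPM in WT MPs. Even the lowest NA MP exceeded every WT MP, and Ddit4 rose 2.31-fold (log2 1.21 ± 0.15, edgeR adjusted p = 6.9e-09), with 1.07 to 1.36 on the log2 scale when single samples were left out. The immediate early genes, which rose in the same samples, are also known to respond to handling, and their part in this change was not tested. Ndrg1, a stress-response gene of the N-myc downstream family, read 94.4, 75.0, 87.8 and 82.2 CPM against 77.5, 70.8, 72.1, 71.1 and 76.0 CPM. NA MP 2 lay within the WT MPs, and the rise was 15.0% (log2 0.20 ± 0.05, edgeR adjusted p = 0.0017). The opposite-strand gene Gm17035 shares 419 exon bases with Ndrg1 and stayed under 2 CPM.

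Vegfa, Bnip3 and Bnip3l, also known as HIF targets, did not pass the test. Vegfa, the vascular growth factor, read 39.0, 41.0, 39.2 and 45.4 CPM in NA MPs and 43.6, 44.7, 44.4, 47.5 and 45.4 CPM in WT MPs, where NA MP 4 overlapped the WT MPs (log2 -0.12 ± 0.06, edgeR adjusted p = 0.12). Bnip3 and Bnip3l, which mark mitochondria for removal, had log2 fold changes of 0.05 ± 0.11 and -0.03 ± 0.04 (edgeR adjusted p = 0.78 and 0.65). For Bnip3 the 95% confidence interval ran from -11.3% to 20.6%.

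Other genes of these pathways were read from 9 lists, which held 142 genes and were chosen by role with earlier results of these data known. In the list of other glycolysis enzymes and glucose carriers 3 of 17 tested genes were higher and 3 lower by edgeR, a share of 35.3% against 34.1% of all tested genes. Pklr, the liver and red-cell pyruvate kinase, read 26.1, 22.1, 24.2 and 27.4 CPM in NA MPs and 66.1, 63.6, 63.2, 62.5 and 68.5 CPM in WT MPs. It fell by 1.37 on the log2 scale (SE 0.07, edgeR adjusted p = 3.6e-24), opposite in direction to Pkm. Pklr is expressed in erythroid cells, whose markers were lower in the same samples, and the part of those cells in the change was not tested. Slc2a6 and Ldhd rose (log2 0.41 and 0.38) and Galm fell by 0.39 on the log2 scale.

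Of 11 tested genes for pyruvate entry into mitochondria 6 passed, each lower in NA MPs, a share of 54.5% against 34.1% of all tested genes. Among genes at or above the panel's median level 48.3% were called, and this list was not compared at matched level. The groups did not overlap for 3 of the 11, each lower, as for 12.2% of all tested genes. The list's median log2 fold change was -0.15. Pcx, pyruvate carboxylase, fell by 0.45 and Dlat, the E2 subunit of pyruvate dehydrogenase, by 0.30 on the log2 scale. Dlat read 74.1, 65.2, 69.9 and 69.7 CPM in NA MPs and 86.2, 83.8, 87.2, 86.0 and 87.0 CPM in WT MPs, without overlap (edgeR adjusted p = 6.6e-07). The dehydrogenase phosphatase regulator Pdpr fell by 0.24 and Pdhx by 0.21 on the log2 scale. Only 4 of the 6 passed in DESeq2.

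In the pentose phosphate list 2 of 11 tested genes passed, a share of 18.2% against 34.1% of all tested genes. Pgls rose (log2 0.16) and Rpia fell by 0.19 on the log2 scale. Of 15 glycogen and gluconeogenesis genes 5 passed, a share of 33.3% against 34.1% of all tested genes, with a median log2 fold change of -0.02. Of the 5, 4 were higher, led by Fbp1, fructose 1,6-bisphosphatase, at 16.1 ± 2.33 CPM (SD, n = 4) against 9.73 ± 1.14 CPM (SD, n = 5), a log2 fold change of 0.73. Phkg2 (log2 0.26) and Pygb (log2 0.16) rose as well. In the serine branch, Psat1 was the single gene of 5 past the threshold (log2 0.13).

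Other parts of the HIF system were read from a pair of lists. Among 14 tested HIF subunits and oxygen-sensing genes 2 were higher and 3 lower, a share of 35.7% against 34.1% of all tested genes. Hif3a, a HIF alpha subunit, read 3.44, 5.18, 1.85 and 4.74 CPM in NA MPs and 6.16, 7.07, 8.11, 5.86 and 8.82 CPM in WT MPs and fell by 0.89 on the log2 scale (edgeR adjusted p = 0.00028). Os9 rose (log2 0.18), while Hspa9 and the coactivator Ep300 fell by 0.15 and 0.13. Of 27 other tested HIF targets 3 were higher and 4 lower, a share of 25.9% against the same 34.1%, and the median log2 fold change was 0.00. Hmox1, haem oxygenase, read 43.8, 22.1, 23.7 and 22.7 CPM against 5.19, 7.07, 7.04, 6.91 and 6.16 CPM and rose by 2.08 on the log2 scale (edgeR adjusted p = 0.00083), with NA MP 1 apart from the other 3. Car12, Ak4 and Ak3 fell by 0.63, 0.55 and 0.34. In the list of mTORC1 inputs beside Ddit4, 1 of 11 tested genes passed, a share of 9.09% against the same 34.1%. That gene, Rheb, fell by 0.13 (edgeR adjusted p = 0.050) and was lost in DESeq2.

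**Figure D4:**
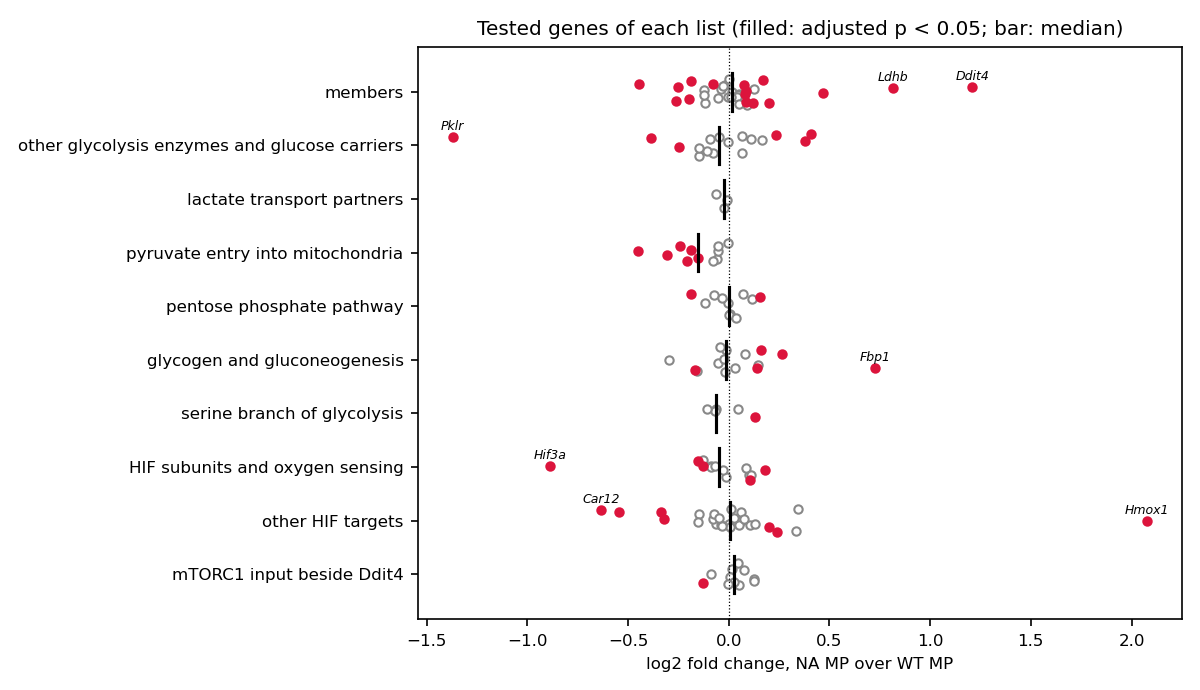
Log2 fold change of NA MPs over WT MPs for each tested gene of the panel and of the 9 lists, with filled points past an adjusted p of 0.05 and a vertical bar at each list's median. The list medians lie between -0.15 for pyruvate entry and 0.03 for mTORC1 inputs, with Hmox1 at 2.08 and Pklr at -1.37 as the farthest points.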

How the data were processed

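RNA-Seq counts per gene were read for 4 NA MP and 5 WT MP samples. Per the labels, the authors used bcl2fastq, RSEM and DESeq2 with the mm10 build, and the deposited values are RSEM expected counts. They had been scaled between samples before deposit. Between 99.6 and 99.9% of the values above 0 were not whole, and dividing each column by the value of 1 read, 0.827 to 1.20, gave whole numbers for 97.4 to 97.7% of values (tolerance 0.02). That value was within 0.26% of the inverse of the sample's DESeq2 size factor. The step was undone and the expected counts were rounded, and the test planned for unscaled counts was then used unchanged. Aligner settings, annotation and use of strand are not given in the sources used here.

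In R 4.3.3, edgeR 4.0.16 was run with TMM normalization, its expression filter (minimum count 10) and the quasi-likelihood test in its robust form. P-values were adjusted by Benjamini-Hochberg over the 11953 tested genes of 20104 with any count. DESeq2 1.42.0 and limma 3.58.1 (log2, pseudocount 1) were alternatives. The fitting functions were run on simulated data first. CPM are counts per 1000000 of the TMM-scaled library. The totals, 5557718 to 8106140 counts, limit precision, and intervals cover 95%. Ensembl identifiers were paired with symbols for 32916 genes. Exon overlaps and lengths, the longest protein-coding transcript of the basic set, came from GENCODE M21 (GRCm38), and promoters from RefSeq. Of the 36 members, 14 overlap an exon of another gene, 11 of them a counted gene on the opposite strand. For single members, mean log2 CPM was also set against its 126 splits in an exact two-sided permutation test. Similar stretches in other genes were sought at 90% identity over 200 bases (blast 2.17.0).

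Members and lists were chosen with earlier results of these data known. Values per sample are given for the members past the threshold and for 10 members named by role, and up to 4 genes past the threshold are named per list, with an item left unreported here. Other alternatives were RLE or library size alone, no filter, 10 counts in every sample, no robust option, unrounded counts, a threshold of 0.01, the replicate number as a block and each sample left out. Analyses of the deposited values as they stood, and limma on them, were chosen after seeing the data.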

Additional observations from a re-analysis of the deposited data

Results flagged for a closer look

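A sample stood apart from the rest of its group, by Dixon's criterion, for 4 of the 66 groups checked, where chance alone gives about 3.3. Slc2a3 was lowest in NA MP 2 at 26.5 CPM, while the other NA MPs read 32.8 to 33.6 CPM. Hk1 was highest in NA MP 1 at 394 CPM, against 366 to 371 CPM in the other NA MPs. Pfkm was highest in WT MP 1 at 63.7 CPM, and the fall of Pfkm passed the threshold without that sample. Pdk2 was highest in WT MP 2 at 16.1 CPM.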

How the results depend on the processing

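Over 20 alternatives, the fold changes of the 33 tested members kept their direction in all but 24 of 660 comparisons, and none of the 16 called members changed direction. The threshold of 0.01 uses the same fit as the main test, so its share of these comparisons could not change direction. The number of members called ran from 11 at a threshold of 0.01 to 17, with 13 in DESeq2 and 12 to 17 with single samples left out. The calls of Slc2a3, Hk1, Gapdh, Pgk1 and Eno1 were each lost in some setting. Genes called ran from 2886 at 0.01 to 4306 without a filter, with 3084 in DESeq2. Library size alone turned Pfkl to -0.00623, Pdk2 to -0.0103 and Pfkfb4 to -0.0193. Pfkfb4 was also at -0.000673 under RLE, -0.00438 without a filter, -0.00381 in DESeq2, -0.0424 with the replicate block, -0.00768 on the deposited values and -0.0244 in limma, and Slc16a3 was at 0.0019 with 10 counts in every sample and at 0.00137 on the deposited values. With single samples left out, Pfkp ran from -0.0383 to 0.0132, Slc16a3 from -0.0336 to 0.0221, Pdk2 from -0.10 to 0.0832, Bnip3 from -0.0939 to 0.124 and Pfkfb4 from -0.113 to 0.0544. Among the lists, other glycolysis genes called fell to 3 at 0.01, glycogen genes to 3 at 0.01 and in DESeq2, and library size alone gave 1 of the lactate carrier and partner genes, 4 pentose phosphate and 3 serine genes. The mTORC1 list had 0 calls without a filter, with 10 counts in every sample, in DESeq2, at 0.01, with the replicate block and on the deposited values. With single samples left out, calls ran from 3 to 7 for other glycolysis (3 without WT MP 5), 0 to 1 for lactate carrier and partner genes (1 without NA MP 3), 1 to 3 for pentose phosphate (1 without NA MP 2), 3 to 7 for glycogen (3 without NA MP 1), 1 to 2 for serine (2 without NA MP 2 or WT MP 3) and 0 to 2 for mTORC1 genes (2 without NA MP 4, 0 without NA MP 2, NA MP 3, WT MP 2, WT MP 4 or WT MP 5). The cause was not tested.

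Deviations of same-numbered samples from their group means were barely correlated (correlations of -0.02 to 0.05 over genes), and 0 of 4 NA MPs correlated best with the WT MP of their number. With the replicate block, 3741 genes and 14 members were called, 13 of them also called without it. Hk2 was gained (adjusted p = 0.011), and Gapdh, Pgk1 and Eno1 were lost. At this depth Aldoc, Eno2 and Ankrd37 could not be tested.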
